A study of Mus musculus with 16 samples.

Results

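The genes of the cytosolic ribosomal proteins were examined in RNAseq data from cortical bone of the mouse femur. A gene was a member when its symbol was Rpl or Rps followed by a number, with at most 1 letter (a, x, y or l) and 1 more digit after it, or was Rplp0, Rplp1, Rplp2 or Rpsa. Symbols ending in -ps, which mark pseudogenes, were not taken. These rules found 85 of the 36829 features listed for each mouse, 49 of the large (60S) ribosomal subunit and 36 of the small (40S) subunit. All mice were females of 11 weeks and of the strain labelled C57Bl/6 (C57Bl/6J in the study's methods). The hindlimb unloaded (HLU) group of 8 mice was held by the tail for 7 days so that the hind limbs carried no weight, and the control group of 8 mice bore its weight normally. Bone ends were cut off and marrow was flushed out, but cells other than bone cells can remain in such a sample. Each mouse gave its own library, and which library ran on which sequencing lane is not given in the sources used here.

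A ribosome is built from ribosomal RNA and a set of proteins of which each particle holds, with few exceptions, a single copy, so cells make these proteins in matched amounts. In mammals many of their mRNAs begin with a C followed by a run of pyrimidines, the 5′ terminal oligopyrimidine (TOP) tract, through which mTOR signalling and Larp1 control their translation together with that of the elongation factors. Demand for ribosomes is high in cells that divide or secrete much protein, such as marrow precursors and matrix-forming osteoblasts, and defects in single ribosomal proteins are known above all for failing red cell production.

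Values were the authors' RPKM, the reads on a gene scaled to its length in kilobases and to the size of the library. Each value is a whole number of reads times a fixed step for that gene and library, so that reads could be recovered. The library size used in this scaling, its divisor, ran from 7067512 (Control 2) to 19708590 reads (Control 1) in control mice and from 7838277 (HLU 5) to 21363584 (HLU 6) in HLU mice. On the members, between 75550 reads (HLU 5) and 238941 reads (Control 7) were recovered per mouse. Only features averaging 0.5 RPKM or more across all 16 mice were tested, which kept 16973 features, among them 83 of the 85 members, 48 of the 60S and 35 of the 40S subunit. The filter removed Rpl10l, listed at 0 in all 16 mice, and Rps3a3, with a mean of 0.366 RPKM. Fold changes are differences in mean log2(RPKM + 0.1), HLU minus control, which understates changes of genes near 0.1 RPKM. They were tested with limma, a linear model for each feature with variances moderated over all features. A call required an unadjusted p under 0.05 together with a 1.2-fold or larger change in either direction, and calls were also made at an adjusted p under 0.1, with adjustment over all features tested. For single genes a two-sided exact permutation test over the 12870 ways to divide 16 mice into 8 and 8 is given, whose smallest possible p is 0.000155.

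The label of cortical bone was checked against marker genes. Matrix and osteocyte genes were abundant, with a mean of 556 RPKM for Ibsp (bone sialoprotein), 295 RPKM for Col1a1 (type I collagen), 114 RPKM for Dmp1 and 81.2 RPKM for Sost, and none of the 12 bone genes in the list was at 0 in all mice. The libraries also held much RNA of blood-forming cells, with a mean of 10923 RPKM for the granulocyte gene S100a8 and 1122 RPKM for the beta globin gene Hbb-b2. Of 12 muscle genes in the list, 0 are among the features, and muscle was not analysed here.

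Levels of the members spread widely. Over the 16 mice 14 members had a mean of at least 100 RPKM, 45 lay from 10 to 100 RPKM and 26 lay below 10 RPKM. Their median was 24.5 RPKM, against 4.37 RPKM over all features kept. Within the family, the median was 20.6 RPKM for 60S and 31.1 RPKM for 40S members, and kept members ran from 0.549 RPKM (the pseudogene Rps3a2) to 974 RPKM (Rpl4), with Rpl36 as the lowest coding gene at 1.30 RPKM. The 6 most abundant members held 51.4% ± 4.57 (SD, n = 16) of the summed member RPKM.

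Rpl4, whose protein reaches into the tunnel through which the new peptide leaves, was the most abundant member. It ran from 828 to 1244 RPKM in control mice (median 1051) and from 703 to 1153 RPKM in HLU mice (median 896). Rpl32, also of the large subunit, followed with 463 to 1179 RPKM in control mice (median 783) and 320 to 905 RPKM in HLU mice (median 767). For both genes the lowest mouse was in the HLU group (HLU 7 for Rpl4, HLU 4 for Rpl32), and the groups overlapped over most of their range. In the small subunit Rps3a1 had a mean of 320 RPKM, the X-linked Rps4x 292 RPKM and Rps24 259 RPKM. None of these 5 genes was called, with log2 fold changes from -0.29 (Rps3a1) to -0.13 (Rps24). Rps3a1 had the lowest exact permutation p of the 5 (0.0438, n = 8 and 8), but its limma p of 0.054 missed the threshold.

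**Figure D1:**
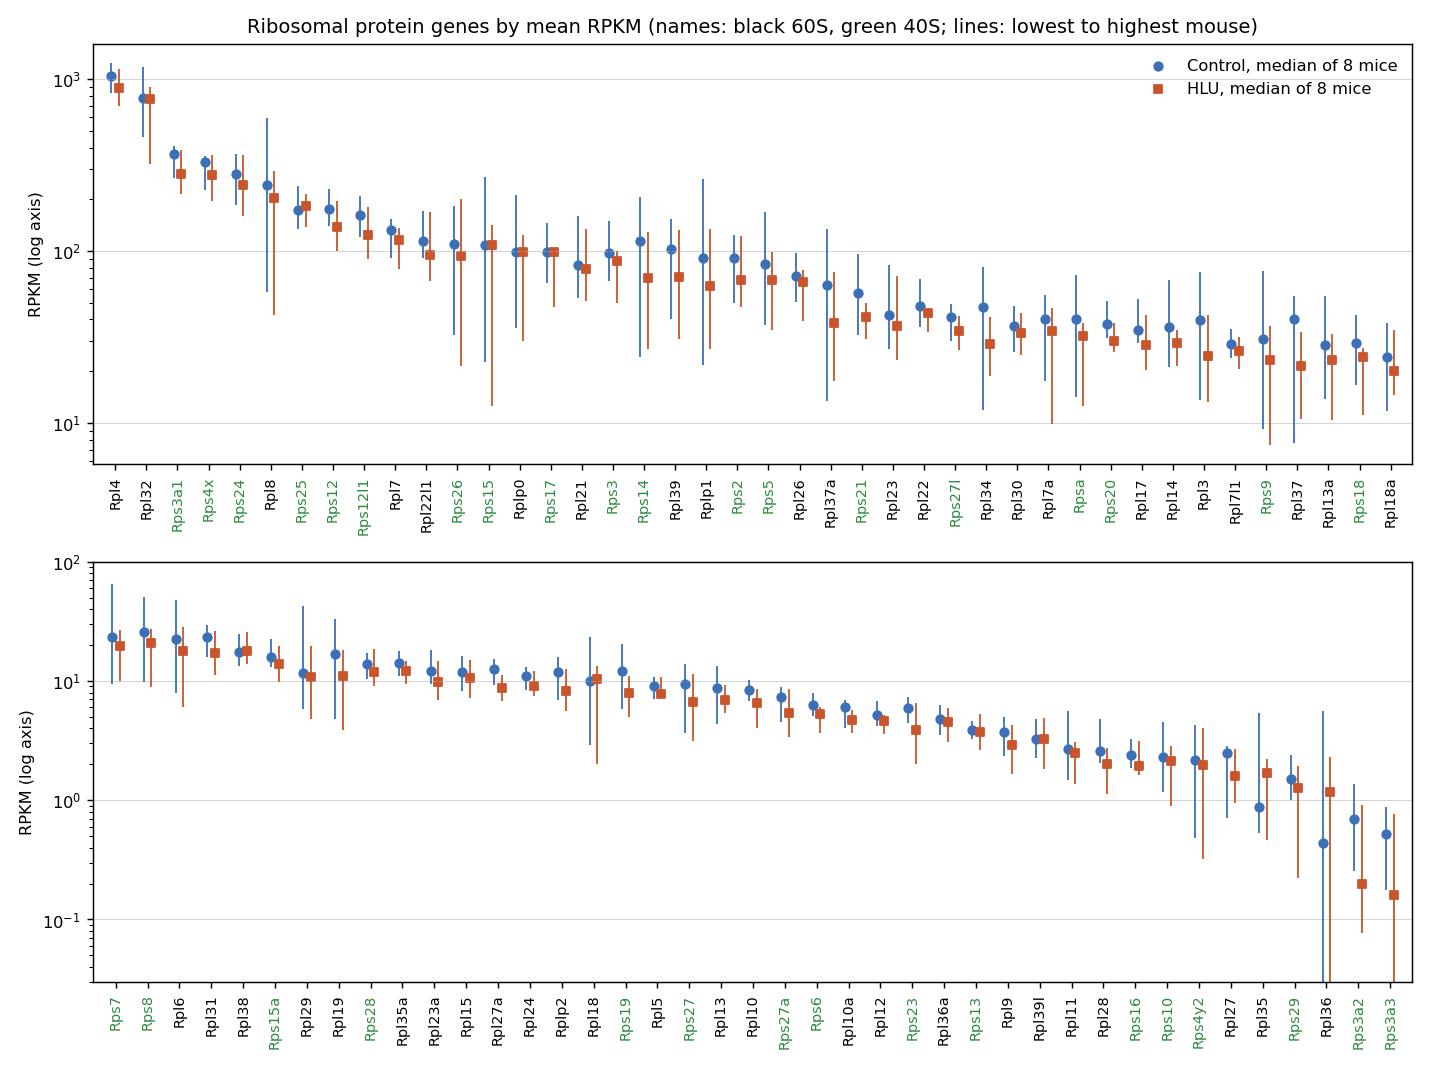
Median RPKM (log axis) of 83 of the 84 ribosomal protein genes with a value above 0 in any mouse (1 is not shown), ordered by mean, for 8 control and 8 HLU mice, with lines from the lowest to the highest mouse of each group. Rpl4 stands highest with a mean of 974 RPKM, and the lines of Rpl36 and Rps3a3 that reach the lower edge end at 0.

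At the other end stood genes whose products are as much a part of each ribosome as that of Rpl4. Rpl35 ran from 0.527 to 5.39 RPKM in control mice (median 0.875) and from 0.467 to 2.20 RPKM in HLU mice (median 1.68). Rps29 ran from 1.01 to 2.41 RPKM in control mice (median 1.5) and from 0.222 to 1.95 RPKM in HLU mice (median 1.25). Rpl36 was listed at 0 in Controls 1, 2, 4 and 6 and in HLU 4, while its highest control mouse had 5.56 RPKM and its highest HLU mouse 2.29 RPKM (medians 0.441 and 1.18), on 0 to 35 reads. Its log2 fold change of 0.79 rests on these few reads and was not called (exact permutation p = 0.462, n = 8 and 8). Rps3a2 and Rps3a3, which the reference annotation (GENCODE M21) classes as processed pseudogenes, had means of 0.549 and 0.366 RPKM. Rpl10l, a copy of Rpl10 that serves in the male germ line, was listed at 0 in every mouse, and all mice were female.

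The levels also depend on how the files assign length and reads, and the part of this in the spread was not tested. The gene length implied by the recovered reads exceeded the longest M21 transcript for 60 of 80 coding members with such a length, and it exceeded the whole genomic span of the gene for 24 of 80 (30%), against 904 of 14742 kept features (6.13%). Its ratio to the main transcript had a median of 2.67 and ran from 0.534 to 16.4. A length that is too long lowers the RPKM of a gene in every mouse alike, which changes its fold change little except where values come near the added 0.1 RPKM. Put on the main M21 transcript instead, the mean levels, in RPKM for that length, were 900 for Rpl4, 756 for Rpl32, 711 for Rps4x, 518 for Rpl7 and 1.37 for Rpl36. Over the 80 genes the ranks on both scales were related with Spearman's rho of 0.827, a description across genes that share libraries.

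Reads can also be lost to copies. The mouse genome holds many processed copies of ribosomal protein mRNAs, and over the 80 coding members a median of 49.3% of the 50-base windows of the main transcript occurred in another annotated gene. The 40 members with more than 50% of their windows shared had a median of 13.5 RPKM, and the other 40 had a median of 35.7 RPKM (rho of -0.369 between shared share and level, or -0.222 with levels on the main transcript). The files list 178 features with -ps symbols, whose summed RPKM came to between 31.9% (Control 7) and 49.2% (Control 1) of the members' sum. How the authors' counting divided reads among such copies is not given in the sources used here, so the level of a member with much shared sequence is uncertain. The clearest case is Rps12l1, a processed copy of Rps12 all of whose windows are shared. Its ratio to Rps12 ran only from 0.861 to 0.932 over the 16 mice, and the within-group deviations of both genes were correlated with r = 0.99 (rho = 0.98, n = 16, r = 0.99 without the 2 mice farthest from the median). They are best read as 1 measurement.

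Members share features at their starts that the choice by symbol did not use. In the RefSeq promoter table for GRCm38.p6, which gives 250 bases before and 50 bases after each annotated start, 61 of the 85 members matched by symbol, with 72 entries. The base at the start was C in 30.6% of these entries and in 16.3% of all 32851 promoters, and a C followed by 4 or more C or T stood exactly at the start in 13 entries (18.1%), against 2.51% of all promoters. Such a tract began within 10 bases of the start in 55.6% of members' entries and in 30.2% of all. These 13 genes were Rpl14, Rpl15, Rpl28, Rpl35, Rpl35a, Rpl38, Rplp2, Rps6, Rps10, Rps15a, Rps18, Rps21 and Rps27. An annotated start can lie some bases from the one used in bone, so a missing tract says only that these letters are not at that place. Searched on both strands over the whole entry, the letters CCGGAAG, the core bound by ETS family factors, occurred in 36.1% of members' entries and 8.86% of all, CACGTG, the E-box of Myc, in 11.1% and 7.15%, and TATAAA in 9.72% and 13.6%. The windows were also richer in G and C, with a median of 58.5% against 52.7%.

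The lines that follow show 30 bases, 10 before the annotated start and 20 from it, 5′ to 3′ on the gene's strand. Capitals mark the longest tract, a C followed by 4 or more C or T, that begins within 10 bases of the start. Lines without capitals hold no such tract. Rps23 (chr13:90923112-90923141, plus strand), Rpl27a (chr7:109519185-109519214, plus strand), Rps6 (chr4:86857348-86857377, minus strand), Rpl10 (chrX:74270806-74270835, plus strand) and Rpl31 (chr1:39367841-39367870, plus strand) are shown as 5 of the 6 members with the lowest limma p between the groups; the other, Rps20, had no entry under its symbol. Rps18 (chr17:33955646-33955675, minus strand) followed the other members closely from mouse to mouse, Rpl5 (chr5:107900518-107900547, plus strand) went against them, and Rpl4 (chr9:64173377-64173406, plus strand) was the most abundant.
Rps23: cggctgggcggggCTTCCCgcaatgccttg
Rpl27a: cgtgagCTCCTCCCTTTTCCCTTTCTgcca
Rps6: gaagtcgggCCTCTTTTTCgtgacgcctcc
Rpl10: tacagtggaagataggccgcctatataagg
Rpl31: tcctcgCCTCCCCgtgacccggaagttgta
Rps18: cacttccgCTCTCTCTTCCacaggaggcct
Rpl5: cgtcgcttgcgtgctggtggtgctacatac
Rpl4: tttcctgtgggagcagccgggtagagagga
The tract covers the start in Rps6, Rps18, Rpl27a and Rpl31, but only in Rps6 and Rps18 is the start a C with 4 or more C or T after it. In Rps23 the tract begins 3 bases after the start. No such tract lies in the windows of Rpl10, Rpl5 and Rpl4.

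Together the members held less of the RNA signal in HLU mice. Their share of all summed RPKM averaged 1.83% ± 0.388 (SD, n = 8) for control and 1.57% ± 0.225 (SD, n = 8) for HLU mice, which differ by -0.264 percentage points. Control mice ran from 1.35% (Control 1) over a median of 1.88% to 2.56% (Control 7), and HLU mice from 1.08% (HLU 4) over a median of 1.65% to 1.77% (HLU 6). All 8 HLU mice lay below the control median, but 3 control mice, Controls 1, 2 and 4, lay within the HLU range and the groups overlapped. No test was made of the share, which is a sum over chosen genes. The difference was smaller than the SD of the control mice and was -0.160 without Control 7. In bulk samples such as these, fewer cells of a type rich in ribosomal mRNA and less of that mRNA per cell cannot be told apart. Relative to the control mean the HLU mean was 14.4% lower, but 6.6% lower when measured outside the mitochondrial genome (-0.154 percentage points) and 11.4% lower as a share of recovered reads (-0.145). Outside the mitochondrial genome the difference was -0.0624 without Control 7 and -0.0986 without HLU 4, and in reads it was -0.0852 without Control 7. With the 10 most abundant other features of each mouse taken out, the difference was -0.176, or -0.0787 without Control 7 and -0.109 without HLU 4. The mitochondrial features held between 14% (Control 7) and 39.8% (HLU 4) of summed RPKM, with means of 22.1% ± 4.86 in control and 28.2% ± 8.29 in HLU mice (SD, n = 8 each), opposite to the members, and their log2 share was related to the mean member deviation, defined further on, with r = -0.69 (rho = -0.68, n = 16, r = -0.60 without HLU 2 and Control 7). Both are parts of the same library total, and the part of the mitochondrial RNA in the members' difference was not tested.

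Both subunits took part about equally. The 60S members held 0.973% ± 0.233 of summed RPKM in control and 0.833% ± 0.134 in HLU mice, and the 40S members 0.860% ± 0.159 and 0.736% ± 0.0974 (SD, n = 8 each). The ratio of 60S to 40S was 1.12 ± 0.0930 in control and 1.13 ± 0.0907 in HLU mice (SD, n = 8 each), from 0.951 (Control 4) to 1.23 (Control 5) over all 16 mice. Controls 1 and 4 and HLU 4, which had the lowest shares, differed in this ratio, which was near 1 in Control 4 and HLU 4 and 1.11 in Control 1.

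**Figure D2:**
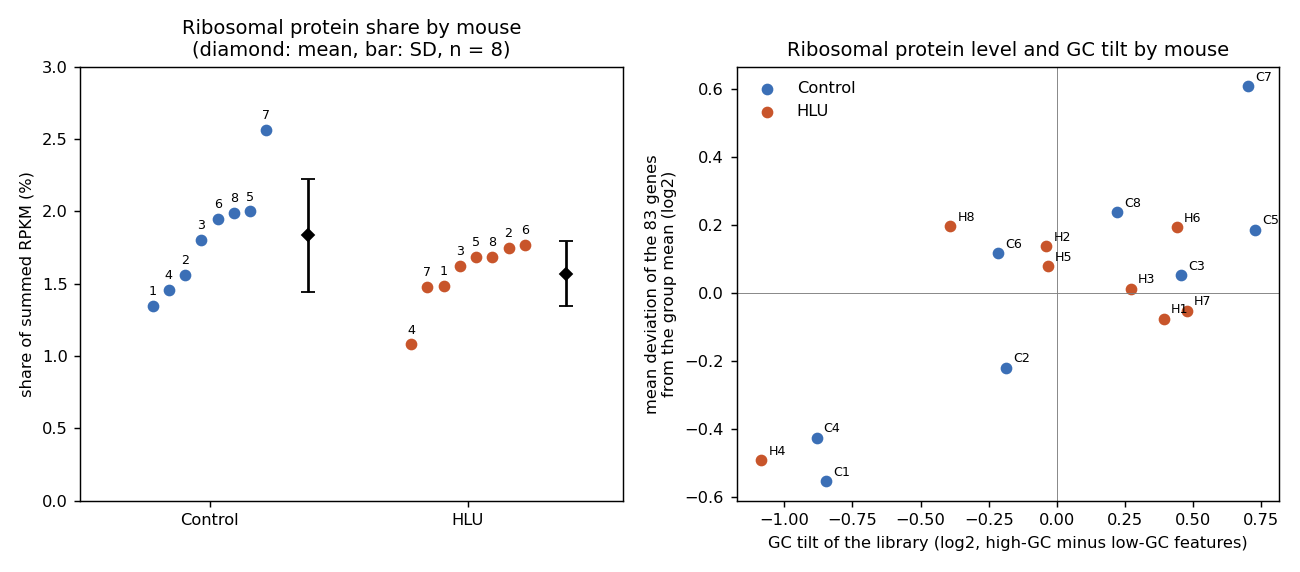
Left, ribosomal protein share of summed RPKM (percent) for each mouse, with mean ± SD of 8 control and 8 HLU mice; right, mean member deviation (log2) against the GC tilt of the same 16 libraries. Control 7 has the highest share (2.56%) and HLU 4 the lowest (1.08%), and HLU 4 also has the lowest GC tilt (-1.08).

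Gene by gene, the members' values were lower in HLU mice almost throughout, by little. Of the 83 members tested, 80 had a log2 fold change below 0 (96.4%), against 67.9% of all features, and the members' median was -0.25 against -0.10. At the unadjusted threshold 13 members fell, 7 of the 60S and 6 of the 40S subunit. They make up 15.7% of the members, against a background of 4.76% of all 16973 features called lower. Of the 369 features of at least 100 RPKM, a level that 14 members reach, 31 were called lower (8.40%), with a median of -0.17. That count ran from 8 (without HLU 7) to 47 (without HLU 8) with 1 mouse left out. Without the processed pseudogenes Rps12l1 and Rps3a2, 11 of 81 members were called (13.6%), 7 of the 60S and 4 of the 40S subunit. None rose, against 1.11% of all features. Without Control 7 the count was 8 (5 and 3) and the median -0.17, and without Control 1 it was 21, of which 12 were of the 60S subunit. Without HLU 8, 10 members of the 40S subunit were called. At the adjusted threshold 0 members and 0% of all features were called by limma in either direction, and the lowest adjusted p of a member was 0.744. Limma voom on the recovered reads, the other tool used, called 10 members lower and 0 higher at the unadjusted threshold, against 3.53% and 1.56% of all features, and 0 at the adjusted threshold. No member had groups that did not overlap, as 0.0295% of kept features did. The calls therefore describe small differences within overlapping ranges.

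The size of the family's difference depended on how libraries were scaled, and its direction did not. In all features 808 were lower and 188 higher, 81.1% of the calls being lower. Leaving out 1 mouse moved the lower count to 505 (Control 6), 512 (Control 7), 488 (HLU 1), 471 (HLU 7) or 1385 (HLU 2), and the higher count to 117 (HLU 7), 310 (HLU 3) or 363 (HLU 2). Median-of-ratios rescaling, which aligns the middle of the features, gave 395 lower and 381 higher (50.9% lower), and quantile normalization, which makes the distributions of all libraries equal, gave 364 and 460 (44.2% lower). Adjusting each library for GC content gave 471 and 438 (51.8% lower), and voom 599 and 265 (69.3% lower). Only the 14746 features with a GC value, 82 of them members, entered the GC adjustment, so its counts also rest on fewer features. Quantile normalization moved the median of all features from -0.10 to 0.00. Relative to the median of all features, the members' median was -0.15 as deposited, -0.15 after median-of-ratios rescaling, -0.13 after quantile normalization, -0.15 with voom and -0.16 after the GC adjustment. Single mice moved it more, to -0.09 without Control 7 and -0.23 without Control 1. Under these 4 alternatives, in the same order, members called lower numbered 10, 7, 10 and 10, and 75, 70, 73 and 74 members were below 0.

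**Figure D3:**
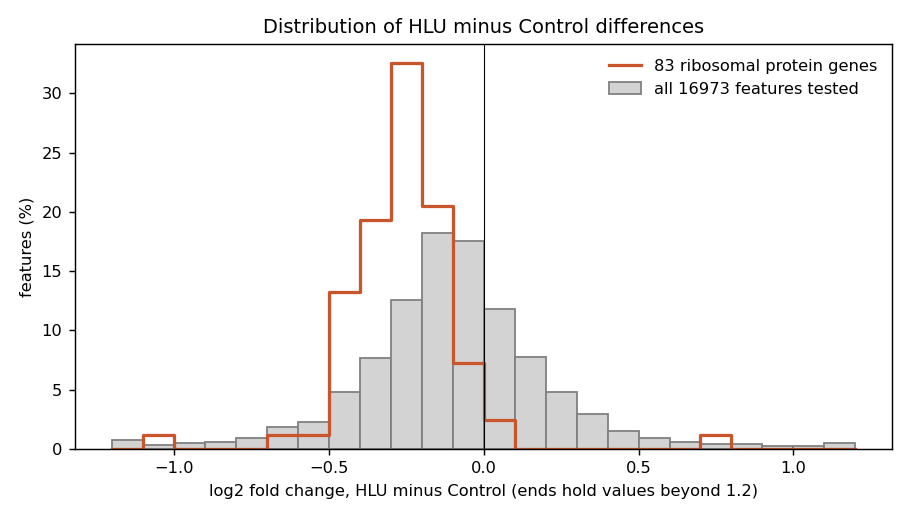
Distribution of log2 fold changes (HLU minus control) of 83 ribosomal protein genes and of all 16973 features tested, as percent of each set. The members' median is -0.25 and that of all features -0.10, with most members in the left part of the distribution of all features.

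Within the small subunit, Rps23, a protein of the decoding centre, had the lowest p of all members. It ran from 4.47 to 7.29 RPKM in control mice (median 5.96) and from 2.02 to 6.57 RPKM in HLU mice (median 3.92), on 23 to 89 reads per mouse. In all, 6 HLU mice lay below the lowest control mouse, whereas HLU 8 lay well inside the control range. Rps23 fell by 0.66 on the log2 scale (exact permutation p = 0.00404, n = 8 and 8; limma adjusted p = 0.744), with 7 of 8 HLU mice below the control median.

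Rps6, the protein that S6 kinases phosphorylate in response to mTOR signalling, ran from 5.13 to 7.99 RPKM in control mice (median 6.33) and from 3.65 to 6.06 RPKM in HLU mice (median 5.23). All 8 HLU mice were below the control median and HLU 1, 6 and 7 were below every control mouse. It fell by 0.41 (exact permutation p = 0.00746, n = 8 and 8). Among the called genes Rps6, Rplp2 and Rpl28 have at the annotated start a C with 4 or more C or T after it. Rps20, in the head of the small subunit, ran from 31.3 to 51.0 RPKM in control mice (median 37.4) and from 25.8 to 38.4 RPKM in HLU mice (median 30.2). Control 7 stood far above the other control mice, and 5 HLU mice were below the lowest control mouse. Rps20 fell by 0.31 (exact permutation p = 0.00715, n = 8 and 8), and was not called without Control 7 or under median-of-ratios rescaling (-0.22), quantile normalization (-0.17), voom (-0.25) and the GC adjustment (-0.20).

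Rps12, a protein of the beak of the small subunit, was the most abundant member that was called. It ran from 141 to 230 RPKM in control mice (median 176) and from 99.9 to 197 RPKM in HLU mice (median 138). HLU 1 and HLU 7 were lowest, and 5 HLU mice were below every control mouse. It fell by 0.37 (exact permutation p = 0.0287, n = 8 and 8), as did its copy Rps12l1 (exact permutation p = 0.0339). Both calls were lost under quantile normalization, under the GC adjustment and without any one of Controls 6, 7 and 8, HLU 1 and HLU 7, and that of Rps12l1 also under median-of-ratios rescaling. The remaining call in this subunit was the pseudogene Rps3a2, with 1 to 20 reads per mouse, a control median of 0.694 RPKM and an HLU median of 0.198 RPKM (log2 fold change -1.08, exact permutation p = 0.026, n = 8 and 8).

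Rps19, the ribosomal protein gene most often mutated in Diamond-Blackfan anemia, was not called. It ran from 5.84 to 20.6 RPKM in control mice (median 12.1) and from 5.01 to 11.0 RPKM in HLU mice (median 7.90), with a log2 difference of -0.45 (exact permutation p = 0.0878, n = 8 and 8). All 8 HLU mice lay below the control median, while Controls 1, 2 and 4 lay among them. After the GC adjustment its log2 fold change of -0.38 passed the threshold. Rpsa, also known as the laminin receptor precursor, ran from 14.2 to 72.2 RPKM in control mice (median 40.1) and from 12.5 to 38.2 RPKM in HLU mice (median 32.0). Control 7 was highest and HLU 4 lowest, all 8 HLU mice lay below the control median, and it was not called (log2 fold change -0.22, exact permutation p = 0.527, n = 8 and 8).

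In the large subunit, Rpl27a ran from 9.31 to 15.3 RPKM in control mice (median 12.5) and from 6.84 to 11.1 RPKM in HLU mice (median 8.76). All 8 HLU mice lay below the control median and 5 lay below every control mouse. Rpl27a fell by 0.45 (exact permutation p = 0.00653, n = 8 and 8). Rpl10, which joins late in the assembly of the large subunit beside the peptidyl transferase centre, ran from 6.79 to 10.2 RPKM in control mice (median 8.35) and from 4.06 to 8.59 RPKM in HLU mice (median 6.5). Below every control mouse lay 5 HLU mice, with HLU 1 lowest. Rpl10 fell by 0.43 (exact permutation p = 0.00917, n = 8 and 8). As 92.1% of its windows occur in other genes, part of its reads may belong to copies. Rpl31, at the mouth of the peptide exit tunnel, ran from 16 to 29.3 RPKM in control mice (median 23.3) and from 11.2 to 26.1 RPKM in HLU mice (median 17.3). HLU 1, 6 and 7 were below every control mouse and HLU 8 was above the control median. Rpl31 fell by 0.45 (exact permutation p = 0.0183, n = 8 and 8). Rps23, Rpl27a, Rps6, Rpl10 and Rpl31 kept their calls with any 1 mouse left out and under every other setting tried on all 16 mice.

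The other calls in the large subunit, apart from the stalk, are named because of their values. Rpl10a fell by 0.34 (exact permutation p = 0.0134, n = 8 and 8) and lost its call under both rescalings, the GC adjustment and voom. Rpl17 fell by 0.38 (exact permutation p = 0.0343) and lost it under quantile normalization, the GC adjustment and without any one of Controls 6, 7 and 8, HLU 1 and HLU 7. Rpl28 fell by 0.47 (exact permutation p = 0.0275) and lost it with voom, with the replicate number as a block and without any one of Controls 7 and 8 and HLU 1, 4, 6 and 7.

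The stalk of the large subunit, made of Rplp0, Rplp1 and Rplp2, recruits the GTPases that drive initiation and elongation. Rplp2 ran from 6.94 to 15.9 RPKM in control mice (median 12) and from 5.59 to 12.6 RPKM in HLU mice (median 8.18). Below the control median lay 7 HLU mice, and HLU 1, 2 and 4 were below every control mouse. Rplp2 fell by 0.48 (exact permutation p = 0.0319, n = 8 and 8), a call lost under quantile normalization (-0.36). The partners of Rplp2 varied more between mice of a group than between groups. Rplp0 ran from 35.9 to 212 RPKM in control mice (median 99.1) and from 30.1 to 125 RPKM in HLU mice (median 98.8), with a log2 difference of -0.13 (exact permutation p = 0.737, n = 8 and 8). Rplp1 ran from 21.8 to 264 RPKM in control mice (median 90.9) and from 27.1 to 135 RPKM in HLU mice (median 62.9), with a log2 difference of -0.28 (exact permutation p = 0.586, n = 8 and 8). For both genes Controls 5 and 7 were the highest mice and Control 4 and HLU 4 among the 3 lowest.

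Rpl5 and Rpl11 form a particle with the 5S ribosomal RNA, and this particle binds Mdm2 when ribosome assembly fails. Rpl5 ran from 7.08 to 10.8 RPKM in control mice (median 9.03) and from 7.29 to 10.8 RPKM in HLU mice (median 7.77). Rpl11 ran from 1.49 to 5.63 RPKM in control mice (median 2.68) and from 1.37 to 3.10 RPKM in HLU mice (median 2.49). Neither was called (log2 fold changes -0.05 and -0.23, exact permutation p = 0.674 and 0.408, n = 8 and 8). The pair went opposite ways between mice, as Control 4 was the highest control mouse for Rpl5 and the lowest for Rpl11, and Control 5 was the lowest for Rpl5 and the second highest for Rpl11.

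Of paralogs with a parent among the members, Rps27l, Rpl22l1, Rpl39l and Rpl7l1 were compared with it, and none of these 4 was called. Rps27l, a target of p53, was more abundant than its parent Rps27, with 30 to 49.1 RPKM in control mice (median 41.2) against 3.68 to 13.9 RPKM (median 9.52). In HLU mice Rps27l ran from 26.7 to 42.0 RPKM (median 34.1) and Rps27 from 3.12 to 11.4 RPKM (median 6.62). Neither was called (log2 fold changes -0.24 and -0.51), and 98.6% of the windows of Rps27 occur in other genes. Rpl22l1 had a mean of 117 RPKM and Rpl22 one of 45.3 RPKM, with log2 fold changes of -0.27 and -0.22. Rpl39l, best known from the testis, had a mean of 3.29 RPKM and a log2 fold change of -0.02, and Rpl39, which lines the exit tunnel, 88.5 RPKM and -0.45. Rpl7l1 had a mean of 27.9 RPKM and a log2 fold change of -0.20, and Rpl7 122 RPKM and -0.16. Within groups, Rps27l and Rps27 were related with r = -0.20 (rho = -0.11, r = 0.05 without the 2 farthest mice), Rpl22l1 and Rpl22 with r = 0.06 (rho = 0.26, -0.05), Rpl7l1 and Rpl7 with r = 0.51 (rho = 0.48, 0.34) and Rpl39l and Rpl39 with r = 0.70 (rho = 0.62, 0.58), each over 16 mice. The 3 members with a fold change above 0 were Rpl36, Rpl35 (0.06) and Rpl38 (0.02), and they are given because their number is small.

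Genes around the family were read in the same way. The 111 kept pseudogenes with -ps symbols, many of which share sequence with members, had 17 lower (15.3%, against 4.76% of all features) and 0 higher calls (against 1.11%) and a median of -0.35, with 34 lower without Control 1, 10 without Control 7 and 10 without HLU 1, where the median was -0.23. Their count at an unadjusted p under 0.05 was 17 by limma, and voom called 8 lower and 0 higher. Of ribosomal proteins outside the symbol rule 4 were tested. Among them were Fau, made as a fusion with a ubiquitin-like protein, Rpl36al, and the scaffold protein Rack1 under its older symbol Gnb2l1. None was called by limma or voom and none had an unadjusted p under 0.05, with a median of -0.21 (-0.07 without HLU 4, -0.09 without Control 7, -0.33 without Control 1 and -0.36 without Control 4), and 1 was called lower without any one of Controls 1 and 6 and HLU 2, 6 and 8. The median was -0.13 with voom, -0.12 after median-of-ratios rescaling and -0.10 after quantile normalization. After the GC adjustment it was -0.03 over the 3 genes with a GC value. Gnb2l1 ran from 36.8 to 96.9 RPKM in control mice (median 66.8) and from 31.5 to 61.7 RPKM in HLU mice (median 52.2).

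Elongation factors and other genes with TOP mRNAs had no call among 17 by limma or voom and none with an unadjusted p under 0.05. All 17 had values below 0, against 67.9% of all features, and a median of -0.19 against -0.10. This median was -0.10 after median-of-ratios rescaling, -0.06 after quantile normalization, -0.08 after the GC adjustment and -0.13 with voom. In the same order, the median of all features was -0.01, 0.00, -0.01 and -0.04. Eef1a1, which brings the tRNA to the ribosome, was the most abundant with a mean of 545 RPKM and a log2 fold change of -0.22. When 1 mouse was left out, 3 of the 17 were called lower without Control 5, 2 without Control 3 and 1 without Control 2 or HLU 8. Of 30 initiation factors, 0 were called and 1 had an unadjusted p under 0.05 in limma. This was Eif4g3, a scaffold of the cap-binding complex, with 8.82 to 11.9 RPKM in control mice (median 11.3) and 10.8 to 15.1 RPKM in HLU mice (median 13.0). The HLU median lay above every control mouse and the lowest HLU mouse within the control range, but its change of 0.22 was under 1.2-fold (exact permutation p = 0.0118, n = 8 and 8), and voom, both rescalings and the GC adjustment each called 1 initiation factor higher. The median over the list was -0.17 (-0.10 without HLU 4). It was -0.07 after median-of-ratios rescaling, -0.03 after quantile normalization, -0.07 after the GC adjustment and -0.09 with voom. Eif5a was the most abundant gene of the list (81.3 RPKM), and 2 factors were called lower without Control 3 and 1 without any one of Control 5 and HLU 2, 5 and 8.

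Of 55 ribosome assembly genes 8 were lower and 0 higher (14.5%, against 4.76% lower of all features), with a median of -0.21. The number was 5 without any one of Controls 6, 7 and 8, 3 after median-of-ratios rescaling and 2 each after quantile normalization, after the GC adjustment and with voom. An unadjusted p under 0.05 was reached by 9 genes in limma, 8 after the GC adjustment, 5 with voom and 4 after either rescaling. After the GC adjustment most genes with such a p were therefore under 1.2-fold. The list's median was -0.12 after median-of-ratios rescaling, -0.08 after quantile normalization, -0.11 after the GC adjustment and -0.14 with voom. The 8 genes were Nop56 and Gar1 of the small nucleolar particles that modify ribosomal RNA, Heatr1, Utp20 and Noc4l of small-subunit processing, Wdr12 and Nop16 of the large-subunit path, and the RNA acetyltransferase Nat10. Gar1 ran from 4.66 to 6.67 RPKM in control mice (median 5.48) and from 2.96 to 5.78 RPKM in HLU mice (median 4.17), and fell by 0.42 (exact permutation p = 0.00482, n = 8 and 8). Rrs1, which helps the 5S particle into the large subunit, also had a limma p under 0.05 (log2 fold change -0.25), but its change was just under 1.2-fold. The most abundant gene of the list, Ncl, had a mean of 92.7 RPKM and was not called. RNA polymerase I genes had 0 calls of 13 by limma or voom and a median of -0.16 (-0.10 without HLU 6 and -0.09 without HLU 7). After median-of-ratios rescaling the median was -0.07, after quantile normalization -0.04, after the GC adjustment -0.06 and with voom -0.11 over these 13 genes. The most abundant, Polr1d, was the only one with an unadjusted p under 0.05 in limma (log2 fold change -0.18, under 1.2-fold), and 3 genes were called lower without HLU 3 and 1 without any one of Controls 1 and 4 and HLU 2.

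Among 20 genes of mTOR signalling and of transcription factors for ribosomal protein genes, 1 fell, with a median of -0.10 equal to that of all features. This share of 5% is near the 4.76% of all features called lower. The call is given for the gene alone. The gene was Myc, a general activator of ribosome production, with 3.46 to 5.99 RPKM in control mice (median 4.32) and 2.13 to 4.62 RPKM in HLU mice (median 3.05). The HLU median lay below every control mouse, but the highest HLU mouse lay above the control median. Myc fell by 0.49 (exact permutation p = 0.0073, n = 8 and 8). With voom, under both rescalings and with any 1 mouse left out, 1 of the 20 genes was called lower. The GC adjustment left 0 of the 20 genes called and 0 with an unadjusted p under 0.05. Max, its partner, was the most abundant of the list with 40.2 RPKM.

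Markers of cells that can remain in flushed bone moved with the family in part. Of 12 erythroid genes 11 were listed and kept, all 11 had values below 0 with a median of -0.61, and 4 were called lower (36.4%, against 4.76% of all features), namely Hbb-b1, Hbb-b2, Klf1 and Car2, which osteoclasts also express. After the GC adjustment, 1 of the 8 genes with a GC value was called. The count rested on single mice, with 1 without any one of Controls 6 and 7 and HLU 1, 4 and 7, 2 without HLU 5 and 7 without HLU 2. Their summed level ran from 2012 RPKM (HLU 7) to 10094 RPKM (Control 7), Hbb-b2 was the most abundant, and none was at 0. Across mice the log2 sum was related to the members' mean deviation with r = 0.73 (rho = 0.78, n = 16, r = 0.63 without Control 7 and HLU 2), points that share library and depth. The part of erythroid cells in the members' lower values was not tested.

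Of 9 kept granulocyte genes, 0 were called by limma or voom and 0 had an unadjusted p under 0.05. Their median of -0.13 rested on single mice, as it ran from -0.22 (without HLU 3) to 0.00 (without HLU 4). It was -0.03 after median-of-ratios rescaling, -0.02 after quantile normalization, -0.02 after the GC adjustment and -0.06 with voom. The sum of the granulocyte genes, led by S100a8, ran from 12930 RPKM (HLU 7) to 45655 RPKM (HLU 2) with r = -0.09 (rho = -0.01, n = 16, r = -0.22 without those 2 mice). S100a8 and S100a9 dominate that sum, and single genes ran from r = -0.27 (Mmp8) to 0.68 (Camp) with the mean member deviation. Of 9 kept B cell genes 1 was called, Vpreb3 of the pre-B cell receptor (log2 fold change -0.81), with a list median of -0.35 (-0.23 without HLU 7). The number called was 4 without Control 5 and 2 without any one of Control 6 and HLU 1, 2 and 3. The B cell sum, led by Cd74, ran from 96.6 RPKM (HLU 4) to 393 RPKM (Control 7) and was related to the members with r = 0.48 (rho = 0.35, r = 0.38 without the 2 farthest mice). Of 12 bone genes 1 was called higher, the matrix gene Mepe (0.79), against 1.11% of all features. Values below 0 were found for 5, and the median of 0.07 turned negative without any one of Controls 1, 2 and 6 and HLU 1. It was 0.17 after median-of-ratios rescaling, 0.22 after quantile normalization and 0.17 after the GC adjustment, with 2 genes called higher under each. With voom it was 0.14, with 1 called higher. The number called was 0 without Control 1 and 2 without any one of Controls 3 and 8 and HLU 2. The sum of the bone genes, led by Ibsp, ran from 989 RPKM (Control 2) to 2994 RPKM (HLU 1) with r = -0.01 (rho = -0.04, -0.08). Of 6 kept adipocyte genes 1 was called higher (against 1.11% of all features), Fabp4 (0.34), with a median of 0.46 and r = 0.30 (rho = 0.35, 0.15), and their sum ran from 409 RPKM (Control 1) to 839 RPKM (HLU 6). That call was lost with Control 1, 4 or 6 or HLU 1, 4, 5, 6 or 7 left out and became 2 without Control 5 or HLU 3. No gene of these lists that the files hold was at 0 in all mice, and the part of these cells in the members' values was not tested.

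The members' levels rose and sank partly together from mouse to mouse. For this, the mean of each gene's group was taken from its log2 values, so that the deviations over the 16 mice hold no difference between the groups. Over the 3403 pairs of kept members the median Pearson's r was 0.33, with 5% of pairs below -0.50 and 5% above 0.91, and 71.5% of pairs were above 0. The mean pairwise r was 0.279, against 0.0415 among the other kept features and 0.130 among those of at least 20 RPKM. Of the 83 members, 45 (54.2%) had r above 0.5 with the mean of the other members, against 25.6% of the 16890 other kept features with the mean of the members. A first component held 42.1% of the members' variance and a second 25.9%. These values are descriptions, since all points share the same 16 libraries.

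Rpsa, Rps18 and Rps3, which sits at the entry of the mRNA channel, followed the rest most closely (r = 0.95 each). In all, 16 members had r above 0.9, or 9 without Control 1 or without Control 7, and 14 members were below 0. The lowest were Rpl5 (r = -0.49), Rps27l (r = -0.37) and Rpl21 (r = -0.34). Rpl21 was highest in Controls 1 and 2 and in HLU 2 and 3, from 134 to 160 RPKM, and lowest in HLU 7 and Control 5, at 51.6 and 53.2 RPKM. The 60S and 40S means moved almost as one (r = 0.97, rho = 0.94, n = 16, r = 0.95 without Control 1 and HLU 4). In the mean over all members, Control 7 was highest (0.61 on the log2 scale above its group) and Control 1 (-0.55), HLU 4 (-0.49) and Control 4 (-0.43) lowest. The median pairwise r was 0.41 in control mice alone and 0.27 in HLU mice alone (n = 8 each), a difference that was not tested.

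**Figure D4:**
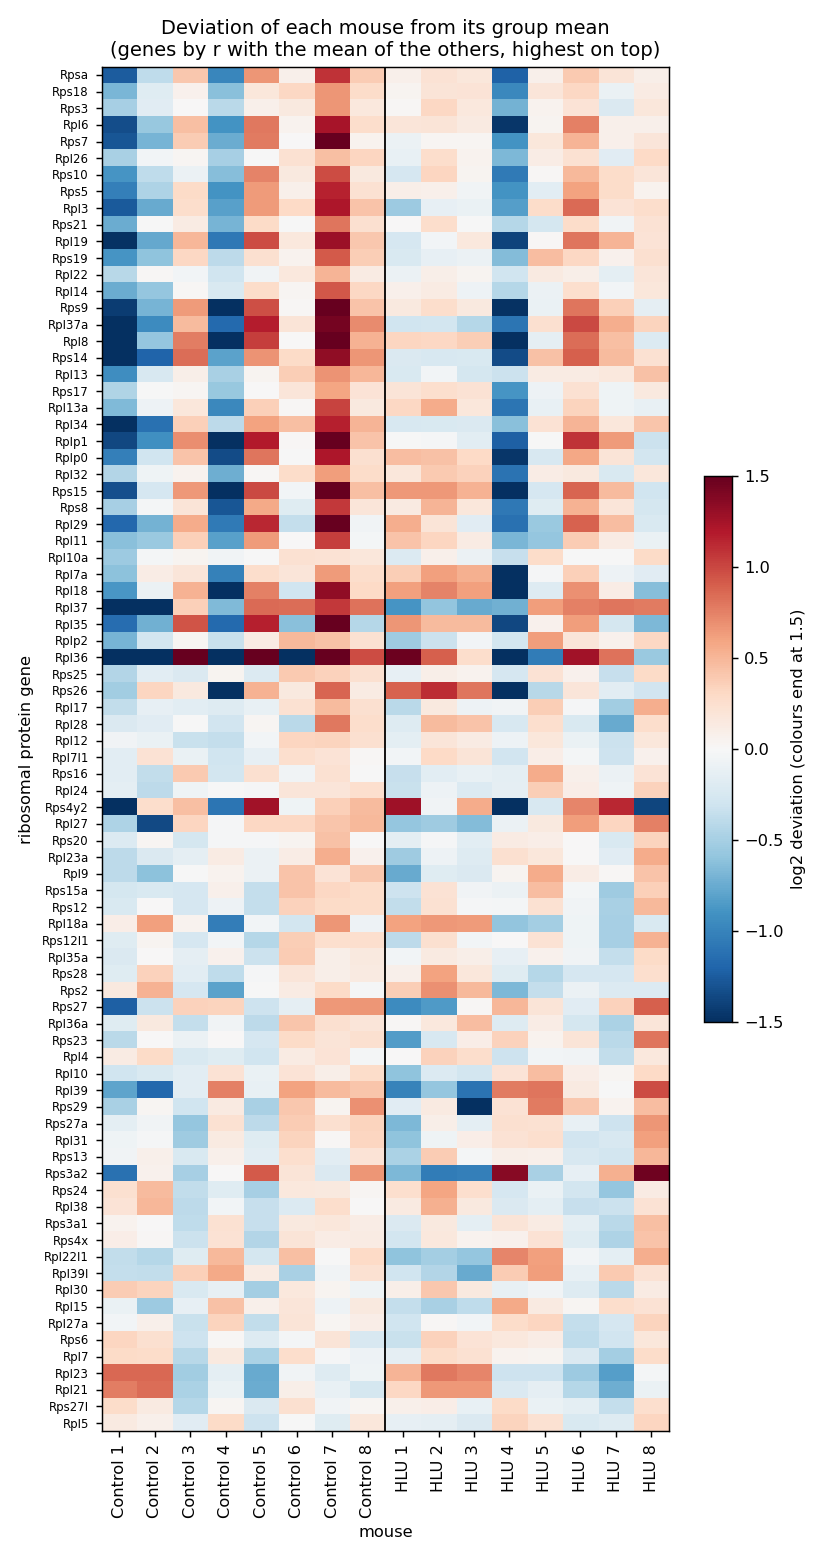
Within-group deviations (log2) of 82 of the 83 kept ribosomal protein genes in 16 mice (1 is not shown), with genes ordered by their r with the mean of the other members. The upper genes, led by Rpsa (r = 0.95), are high in Control 7 and low in Controls 1 and 4 and HLU 4, and the lowest genes, ending with Rpl5 (r = -0.49), run against them.

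This common movement went in part with base composition. For each library a GC tilt was computed, with members left out, from log2 deviations from the mean over all 16 mice. It is the mean deviation of the 20% of features with the highest GC content (above 55.3%) minus that of the 20% with the lowest (below 44.1%). Its group means differed by 0.007. It ran from -1.08 (HLU 4) to 0.73 (Control 5). The mean member deviation was related to it with r = 0.77 (rho = 0.50, n = 16, r = 0.62 without HLU 4 and Control 4). Across the 82 members with a GC value, the r of a member with the others rose with its GC content (rho = 0.51) and with its own r with the tilt (rho = 0.88). Other features showed the same, with rho of 0.72 between GC content and r with the members' mean over 14664 features. Genes are not independent points in such relations.

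Split at their median GC content, the 41 members with more GC followed the tilt with r = 0.88 (rho = 0.78, r = 0.79 without HLU 4 and Control 4) and the 41 with less GC with r = 0.27 (rho = 0.13, r = 0.07). The means of these sets were still related to each other with r = 0.66 (rho = 0.56, r = 0.52 without Control 7 and HLU 4). The low-GC set was related most closely to the log2 sums of the erythroid genes (r = 0.80, rho = 0.86, r = 0.78 without the 2 farthest mice) and of the initiation factors (r = 0.80, rho = 0.90, r = 0.73), each with n = 16. For ribosomal proteins outside the symbol rule r was 0.75, and for mTOR and regulator genes 0.51. It was 0.46 for elongation factors and other TOP mRNAs, 0.36 for RNA polymerase I and 0.33 for ribosome assembly. For these lists, in the same order, r with the mean of all members was 0.98, 0.53, 0.22, -0.02 and -0.05. The initiation factors had 0.69. With the low-GC set, r was 0.35 for B cell, 0.34 for granulocyte, 0.11 for adipocyte and -0.22 for bone genes. After the GC adjustment the median pairwise r was 0.214, but the mean member deviation kept r = 0.96 with the one before it and r = 0.73 with the tilt. The median pairwise r was 0.218 after median-of-ratios rescaling and 0.170 after quantile normalization. With any 1 mouse left out it lay between 0.274 (Control 7) and 0.352 (Control 5). Mean pairwise r of members was 0.188, 0.155 and 0.195 after median-of-ratios rescaling, quantile normalization and the GC adjustment. Among other features it also fell, from 0.0415 to 0.0007, 0.0045 and 0.0001. Members with r above 0.5 numbered 39 of 83, 42 of 83 and 41 of 82, against 21.9%, 20.2% and 10.5% of other features. Log2 library depth was hardly related to the mean member deviation (r = -0.05, rho = -0.16, r = -0.30 without Control 2 and HLU 5). The part of base composition in the coordination beyond these values was not tested.

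**Figure D5:**
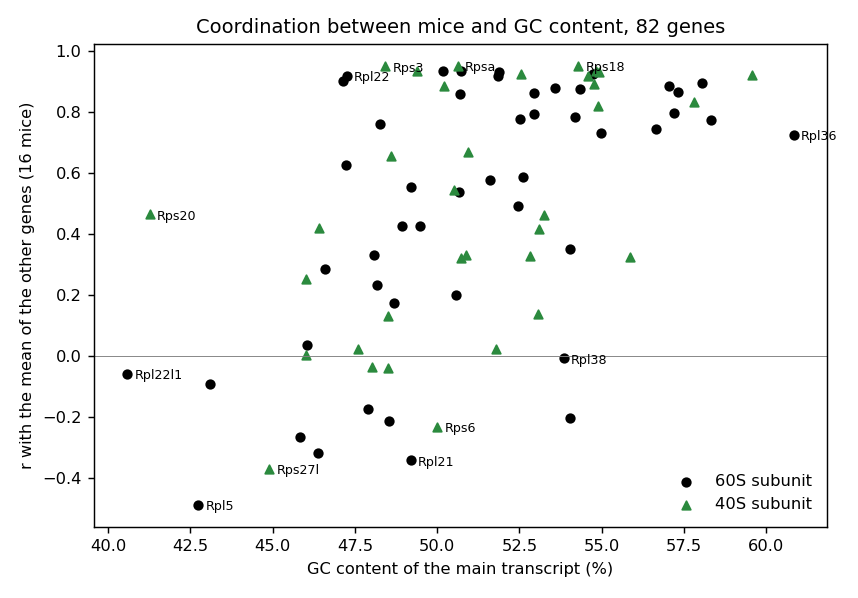
Pearson's r of each of 82 ribosomal protein genes with the mean of the other members (within-group deviations, 16 mice) against the GC content of the gene (percent). Genes with more GC tend to have higher r (rho = 0.51), while genes with less GC reach from -0.49 (Rpl5) to above 0.9.

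Among 7222 other features with a unique symbol and a mean of at least 5 RPKM, Gnb2l1 was most like the mean of the members (r = 0.98, n = 16). The next were Ssna1 (r = 0.97), Bysl (r = 0.96), an assembly factor of the small subunit, H2-T23, a class Ib histocompatibility gene (0.95), the splicing factor U2af2 (0.95), Msrb1 (0.95), Gm25692 (0.95) and Gm22455 (0.94). All 8 also followed the GC tilt, with r from 0.74 (Gnb2l1) to 0.85 (U2af2), although Gm22455 has a GC content of only 38%. Farthest in the opposite direction were Synj2bp (r = -0.92), Emc2, a subunit of an ER membrane insertase (-0.91), Nampt, which makes an NAD precursor (-0.89), and Arl8b, a GTPase of lysosomes (-0.89). Their GC content ran from 39.1% to 43.4%, below the median of 49.7% over other kept features, and their r with the tilt from -0.91 to -0.76.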

How the data were processed

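Libraries were multiplexed, 8 to a lane of a HiSeq. The authors aligned the reads (TopHat2 and mm9 are named in the submitters' processing notes, as is DESeq2) and deposited RPKM per feature and mouse. Members and gene lists were chosen with earlier results of these data known. Genes named in the text are taken from the 6 most and 6 least abundant members, the 6 with the lowest limma p, the 3 with the highest and the 3 with the lowest r with the others, stalk and 5S particle proteins, Rps6, Rps19, Rpsa, paralogs with their parents, ribosomal proteins outside the symbol rule, the 8 features most like and 4 least like the members, list genes with limma p under 0.05 and the most abundant of each list.

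Reads were recovered as whole multiples within 0.02 reads for 84 members and for 16966 kept features. All features with recovered reads, also those below the filter, held between 76.3% and 93.2% of the divisor in a mouse. The recovery and the tests were checked on simulated data. No 2 libraries matched within sampling noise (chi-square over degrees of freedom at least 10.1). HLU and control were compared without covariates with limma 3.58.1 in R 4.3.3, with the variance trend, on RPKM and not with the study's DESeq2. Python 3.11.15, numpy 2.4.6, scipy 1.17.1, pandas 2.3.3 and matplotlib 3.10.9 were used, with GENCODE M21 (GRCm38) for lengths, GC content and 50-base windows, and RefSeq promoters on GRCm38.p6. Positions in the authors' build were not used. Alternatives were pseudocounts of 1 and 0.01, no filter or a stricter one at 2 RPKM, limma voom on recovered reads, a block for the replicate number, quantile normalization, median-of-ratios rescaling, and for the share the values outside mitochondrial features, without the 10 most abundant other features of each mouse, or in reads. A GC-content adjustment in 20 bins, leaving out each mouse, and all other settings for the coordination were chosen after seeing the data.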

Additional observations from a re-analysis of the deposited data

Results flagged for a closer look

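Single mice far from the others of their group were looked for among 80 groups of values. A mouse was taken when its gap to the nearest mouse, over the range of its group, exceeded Dixon's critical value for 8 mice. This was so in 6 of the 80 groups, and chance alone gives about 1 in 20. Control 7 was far above the other control mice for Rps3, at 150 RPKM against 106.3 in the next, and for Rps20, at 51.01 RPKM against 38.67. HLU 4 was far below the other HLU mice in the ribosomal protein share of summed RPKM, at 1.081% against 1.479%, for Rpsa, at 12.49 RPKM against 30.85, and for Rps18, at 11.16 RPKM against 20.47. HLU 5 had the smallest HLU library, with a divisor of 7838277 reads against 15212253. These genes share the same libraries, so the flags for 1 mouse are not separate events, and their causes were not tested.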

How the results depend on the processing

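The count of members lower in HLU mice was 7 under quantile normalization and ran from 8 to 21 with each mouse left out; under the other settings it lay between 10 and 17, and the members' median stayed below 0 in all. No member was called higher under any setting. Features lower in HLU mice numbered 395 after median-of-ratios rescaling, 364 after quantile normalization and 471 after the GC adjustment, and 471 to 1385 with each mouse left out. Features higher numbered 391 without a filter, 106 at a minimum of 2 RPKM, 381 after median-of-ratios rescaling, 460 after quantile normalization and 438 after the GC adjustment, and 117 to 363 with each mouse left out. Fewer or more features were tested with the other filters, and fewer (14746) with the GC adjustment. For the scalings the cause was not tested. The median pairwise r was 0.218, 0.170 and 0.214 under median-of-ratios rescaling, quantile normalization and the GC adjustment, and 0.274 to 0.352 with each mouse left out. The share difference ran from -0.334 to -0.160 with each mouse left out.

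Same-numbered control and HLU mice were treated as unpaired. Over all features 3 of 8 pairs deviated together with r over 0.1 (from -0.17 to 0.51), over the members 5 of 8 did (from -0.42 to 0.93), and 1 control mouse correlated best with its own number. With the replicate number as a block, 17 members were lower and 0 higher, with 840 lower and 199 higher features, the members' median was -0.25, and Rps19 (-0.45) and Rps27 (-0.51) passed the threshold. Of 320 fold changes of named members under alternatives, 307 kept their side of the threshold, 10 fell short of it and 3 newly passed it. None that had passed it changed sign, while 7 of 38 named members changed sign without being called.

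Low reads limit Rpl36, Rps29 and Rps3a2, shared sequence limits the level of any 1 member, and the small differences lie inside the spread between mice.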
